A study of Rattus norvegicus with 6 samples.

Results

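Notch signalling was followed at the level of RNA in rat airway basal cells grown in BEGM or EpiX medium, through 10 genes: the receptors Notch1, Notch2 and Notch3, the ligands Dll1, Jag1 and Jag2, and the target genes Hes1, Hey1, Heyl and Nrarp. The members were taken by gene symbol, and 9 of the 10 were measured, out of 15037 named genes on the array. Jag2 had no named probe set. The cells were scraped from the tracheas of Sprague Dawley rats, all wild-type males 12 weeks of age. There were 3 cell lines, each pooled from 3 rats, and every line was divided at isolation between both culture media, BEGM (bronchial epithelial growth medium) and EpiX (sold for the expansion of epithelial cells). RNA was taken after 8 days, so both groups share the lines, the age and the culture time, and the labels give the medium as what differs. Each culture gave 1 array (3 per medium), and p-values measure the spread between these cultures of pooled lines.

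Notch receptors are cut after a ligand on a neighbouring cell pulls on them, and the freed intracellular part enters the nucleus, where it binds the DNA-binding protein Rbpj and switches on target genes. Many of those targets feed back on the pathway: Hes and Hey proteins are repressors, and Nrarp promotes loss of the intracellular receptor fragment. In the airway lining, Notch signalling between neighbouring cells is known to steer basal cells and their daughters towards secretory rather than ciliated fates.

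All signals are the authors' deposited values, read as log2, and a difference is EpiX minus BEGM on that scale, so that 1 unit is a 2-fold change if the base is 2. Levels of different genes come from different probe sets and were not set against each other. The labelled cell type was checked first. The basal keratin Krt14 was at 16.38 to 16.85 in BEGM and 16.75 to 17.13 in EpiX, and the basal transcription factor Tp63 at 12.23 to 12.93 and 14.62 to 14.80. Of the 13 basal markers, all measured, 5 rose, 1 fell and 7 did not pass, where 2.63% of all genes rose and 3.15% fell. The fall was that of the membrane glycoprotein Pdpn (-2.96 ± 0.21, SE; limma adjusted p = 0.00195), and the basal receptor Ngfr was low on every array (4.69 to 5.37). The pan-leukocyte gene Ptprc (3.78 to 4.14 over all arrays) and the ciliated cell regulator Foxj1 (3.78 to 4.62) were dim, near or under 4.50, the limit of the dimmest 25% of genes. Of 6 measured leukocyte markers the lysosomal protein Cd68 was at 8.65 to 11.36, and 1, the invariant chain Cd74, fell (-1.31 ± 0.27, SE; adjusted p = 0.041, and 0.0526 with the replicate block). BEGM array 1 stood apart from the other BEGM arrays: on the first principal component, with 69.7% of the variance, it scored -7.24, against -54.76 and -73.21 for BEGM arrays 2 and 3 and 34.17 to 53.93 for the EpiX arrays. Results that rest on it are given with and without it.

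Notch1 and its ligand Dll1 were higher in EpiX than in BEGM, by 2.22 ± 0.29 and 1.89 ± 0.19 (SE, n = 3 per medium), and were the 2 members that passed the test (limma, adjusted p = 0.0106 and 0.00494 over all genes). At an adjusted p under 0.05, 2 of the 9 measured members rose, 0 fell and the other 7 missed the threshold, where 2.63% of all genes rose and 3.15% fell (3.72% and 2.72% with each array centred on its median, which called the same 2 members). By limma at an unadjusted p under 0.05, 5 members were higher and 0 lower, against 11% and 11.4% of all genes. The median difference was 0.87 over the members and 0.0022 over all genes. Among receptors and ligands, 2 of 5 rose (median 0.95), and among targets 0 of 4 were called (median 0.34), with Hes1 the 1 target at an unadjusted p under 0.05. For 4 of the 9 members all EpiX arrays lay above all BEGM arrays, and for 0 below them, against 13.5% and 14.5% of all genes. The members were chosen with earlier results of these data known, so these counts beside the shares of all genes are a description. Whether receptors and ligands differ from targets was not tested. In RNA from whole cultures, fewer cells of a type and less RNA per cell cannot be told apart.

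**Figure D1:**
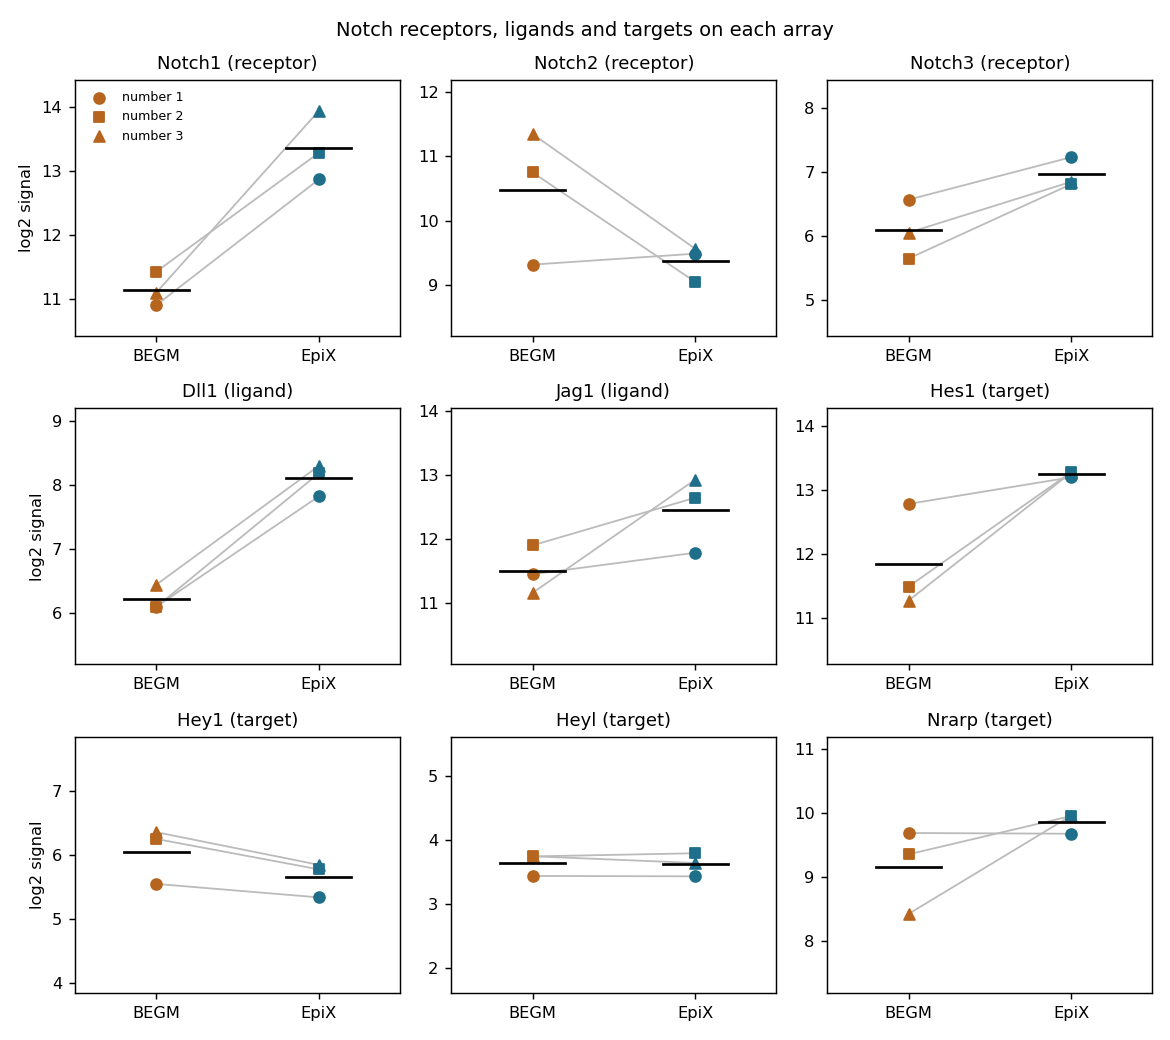
Deposited signal, read as log2, of the 9 measured Notch genes on each array, 1 panel per gene, with all vertical axes spanning the same range. Points are arrays (marker by sample number), grey lines join same-numbered arrays and black bars are means of 3 arrays; the EpiX arrays lie wholly above the BEGM arrays for Notch1, Notch3, Dll1 and Hes1.

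Among the receptors, Notch1 is known for promoting differentiation in stratified epithelium. Its signal on arrays 1, 2 and 3 was 10.90, 11.42 and 11.10 in BEGM and 12.86, 13.28 and 13.94 in EpiX, the order in which values are given throughout. The media did not overlap, and the gap of 1.44 between the highest BEGM and the lowest EpiX array was wider than the range within either medium. The change was 4.65-fold (95% interval of the log2 difference 1.53 to 2.90), and 2.05% of all genes had a larger difference in either direction. Leaving out EpiX array 2 ended its call (adjusted p = 0.0655). Leaving out the pair numbered 2 also ended it (adjusted p = 0.27), a setting in which limma called 0 of all genes and 1582 were at an unadjusted p under 0.05. Here BEGM array 1 had the lowest level of all arrays, and Notch1 passed without it (2.10 ± 0.32, SE; adjusted p = 0.00788).

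Notch2, a receptor that secretory cells of the airway are known to depend on, leaned the other way. Its signal was 9.31, 10.75 and 11.35 in BEGM and 9.48, 9.04 and 9.56 in EpiX. BEGM array 1 lay among the EpiX arrays, while BEGM arrays 2 and 3 were above all of them. The difference of -1.11 ± 0.49 (SE) did not pass (adjusted p = 0.242), and its 95% interval ran from -2.27 to 0.048. Without BEGM array 1 Notch2 fell by 1.69 ± 0.25 (adjusted p = 0.00756), a setting in which 7.32% of all genes fell. It also fell when the pair numbered 1 was left out (adjusted p = 0.0221). Without BEGM array 3 the difference was -0.67 (adjusted p = 0.469). Its spread over the BEGM arrays (SD 1.05) was larger than that of 96.6% of genes.

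Notch3, the receptor that marks cells just above the basal layer in airway epithelium, was at 6.56, 5.65 and 6.05 in BEGM and 7.23, 6.81 and 6.84 in EpiX. The groups did not overlap, with a narrow gap between BEGM array 1 and EpiX array 2. The difference of 0.87 ± 0.26 (SE) missed the threshold (adjusted p = 0.103). It passed with the sample number as a replicate block (adjusted p = 0.0400, where 3.94% of all genes rose), with array weights (adjusted p = 0.0423) and without BEGM array 1 (1.11 ± 0.21, adjusted p = 0.0176, where 6.57% of all genes rose). Its EpiX value was above its BEGM value in each of the 3 same-numbered pairs, by 0.66, 1.16 and 0.79.

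Of the ligands, Dll1, a Delta-type ligand that activates receptors on the neighbouring cell, gave the tightest groups of the called members. It was at 6.10, 6.10 and 6.45 in BEGM and at 7.82, 8.18 and 8.30 in EpiX. No BEGM array came near an EpiX array, and the same-numbered pairs differed by 1.72, 2.09 and 1.86. The change was 3.70-fold (95% interval of the log2 difference 1.45 to 2.33). The call held in 16 of 17 alternatives and ended when the pair numbered 2 was left out (adjusted p = 0.233). Jag1, a ligand of the other, Serrate-type class, was at 11.45, 11.90 and 11.16 in BEGM and 11.79, 12.65 and 12.93 in EpiX. The groups overlapped, since EpiX array 1 lay below BEGM array 2, and the difference of 0.95 ± 0.33 (SE) did not pass (adjusted p = 0.151). Over same-numbered pairs it was 0.34, 0.74 and 1.77, and without the pair numbered 3 it was 0.54. The difference was 1.28 without EpiX array 1 (adjusted p = 0.0813) and 1.26 without the pair numbered 1 (adjusted p = 0.0563).

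**Figure D2:**
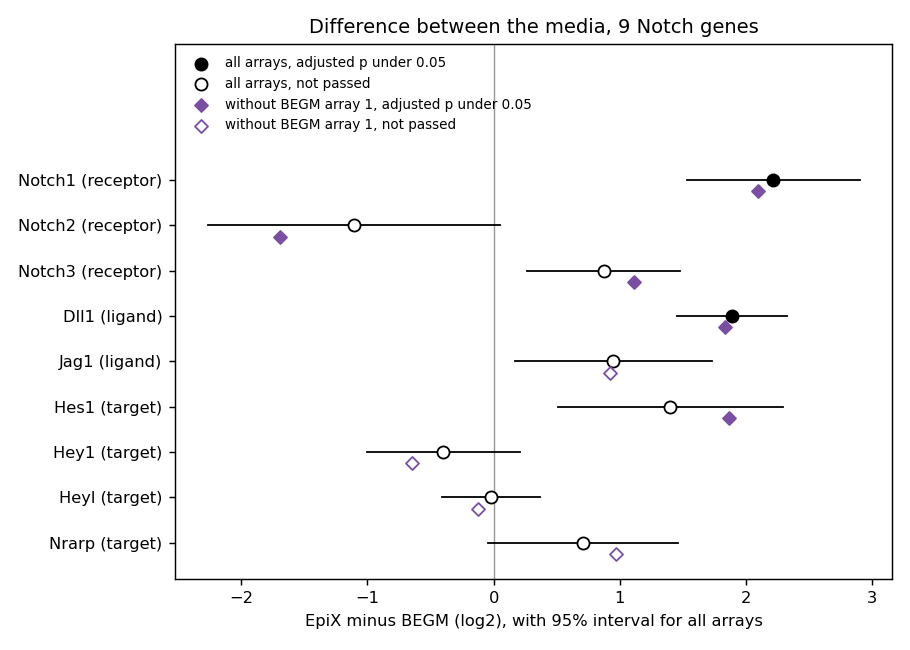
Difference between the media (EpiX minus BEGM, log2) for the 9 measured Notch genes. Circles with bars are estimates and 95% intervals from all 6 arrays, diamonds are estimates without BEGM array 1, and filled symbols passed at an adjusted p under 0.05; Notch1 and Dll1 passed in both, while Notch2, Notch3 and Hes1 passed only in the second of these fits.

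With all arrays no target passed the test. Hes1, the repressor most widely used as a readout of Notch activity, was at 12.78, 11.49 and 11.28 in BEGM and at 13.20, 13.28 and 13.27 in EpiX. All EpiX arrays were above all BEGM arrays, with BEGM array 1 the nearest to them. The difference of 1.40 ± 0.38 (SE; 95% interval 0.51 to 2.29) did not pass (adjusted p = 0.0825), and over same-numbered pairs it was 0.42, 1.79 and 2.00. Without BEGM array 1 Hes1 rose by 1.87 ± 0.16 (adjusted p = 0.00108), where 6.57% of all genes rose. It also rose when the pair numbered 1 was left out (adjusted p = 0.00535) and with array weights (adjusted p = 0.0163). In those settings 4.12% and 6.36% of all genes rose. With any other single array left out Hes1 did not pass (adjusted p = 0.174 to 0.248), and without BEGM array 3 the difference was 1.11. The 3 EpiX arrays agreed to an SD of 0.045, a spread that places Hes1 at the 4.99th percentile of all genes in EpiX, against the 94.3rd percentile in BEGM (SD 0.82).

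Nrarp was at 9.69, 9.35 and 8.42 in BEGM and 9.68, 9.95 and 9.96 in EpiX. EpiX array 1 and BEGM array 1 were at the same level (a difference of -0.012), while the other pairs differed by 0.60 and 1.53. The mean difference of 0.71 ± 0.32 (SE) did not pass (adjusted p = 0.252), and it was 0.34 without BEGM array 3 and 0.29 without the pair numbered 3. Without BEGM array 1 it was 0.97 ± 0.29 (SE), which did not pass either (adjusted p = 0.0717). Hey1, a repressor of the Hes-related family, was at 5.55, 6.25 and 6.36 in BEGM and 5.34, 5.78 and 5.85 in EpiX. It was lower in EpiX in all 3 pairs, by small steps (-0.21, -0.47 and -0.51), and the groups overlapped (difference -0.40 ± 0.26, SE; adjusted p = 0.424). Without BEGM array 1 the difference was -0.65 and without EpiX array 1 -0.24. Heyl, of the same family, was at 3.44 to 3.75 in BEGM and 3.44 to 3.80 in EpiX, in the dimmest 25% of genes on every array. Its difference was -0.020 ± 0.16 (SE, adjusted p = 0.965), with a 95% interval of -0.41 to 0.37.

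Promoters are shown for the called pair, Dll1 and Notch1, and for the feedback targets Hes1 and Nrarp, because these carry or lack the letters that Rbpj and Hes proteins are known to bind. Each line holds the 250 bases before the RefSeq transcription start in the GRCr8 build, 5′ to 3′ on the strand of the gene. Capitals mark TGGGAA, the core bound by Rbpj (TTCCCA where it lies on the opposite strand), and CACGTG, an E-box bound by Hes and Hey proteins.
Dll1: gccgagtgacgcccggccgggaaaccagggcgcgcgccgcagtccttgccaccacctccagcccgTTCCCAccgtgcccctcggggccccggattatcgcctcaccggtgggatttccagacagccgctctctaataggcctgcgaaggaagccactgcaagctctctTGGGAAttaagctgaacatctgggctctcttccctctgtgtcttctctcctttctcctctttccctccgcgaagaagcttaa
Notch1: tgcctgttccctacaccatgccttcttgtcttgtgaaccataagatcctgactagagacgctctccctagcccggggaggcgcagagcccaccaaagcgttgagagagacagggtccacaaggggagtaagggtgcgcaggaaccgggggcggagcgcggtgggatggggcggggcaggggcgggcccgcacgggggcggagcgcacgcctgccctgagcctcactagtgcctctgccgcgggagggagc
Hes1: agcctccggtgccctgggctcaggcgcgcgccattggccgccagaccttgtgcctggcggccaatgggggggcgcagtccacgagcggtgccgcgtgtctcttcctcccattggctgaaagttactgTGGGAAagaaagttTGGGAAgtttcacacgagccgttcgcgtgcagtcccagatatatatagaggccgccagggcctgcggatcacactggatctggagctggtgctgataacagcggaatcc
Nrarp: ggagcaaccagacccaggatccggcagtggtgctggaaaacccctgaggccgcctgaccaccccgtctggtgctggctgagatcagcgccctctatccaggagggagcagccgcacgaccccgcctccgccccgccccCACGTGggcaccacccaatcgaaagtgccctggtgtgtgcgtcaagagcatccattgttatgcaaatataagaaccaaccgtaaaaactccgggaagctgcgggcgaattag
The Hes1 window at chr11:84213046-84213295 (minus strand) holds 2 Rbpj cores in the same orientation, starting 123 and 109 bases before the transcription start, 14 bases apart. The Dll1 window at chr1:64993275-64993524 (minus strand) holds 2 cores in opposite orientations, starting 185 and 82 bases before the start. Neither Notch1 (chr3:29721614-29721863, minus strand) nor Nrarp (chr3:28390495-28390744, plus strand) has a core in this window, and Nrarp has 1 E-box, 112 bases before its start. Of the 10 members, 9 had a promoter entry (Jag2 with 2 windows, Hey1 with none), and the core was found in 2 of these 9, searching both strands, against 22.1% of 33469 promoter windows of the same length. The E-box was found in 1 of 9, against 5.59% of all windows. The N-box CACNAG, another Hes site, which does not overlap the E-box letters, was found in 4 of 9 (Notch1, Notch3, Hes1 and Nrarp), against 37.2%. A match describes letters, not a bound site, and of the 2 genes with a core, Dll1 was called and Hes1 was not.

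The BEGM array nearest to the EpiX mean was not the same for all members, nor was it over all genes. BEGM array 1 was the BEGM array nearest to the EpiX mean for 5 of the 9 members (Notch2, Notch3, Hes1, Hey1 and Nrarp), and for 46.3% of all genes. For Notch1, Jag1 and Heyl it was BEGM array 2 (25.6% of all genes), and for Dll1 BEGM array 3 (28.1%). Whether the members differ from all genes in this was not tested. Likeness between profiles was measured as the root mean square distance over the 6 arrays after each gene was centred on its own mean. Among members it was smallest between Hey1 and Heyl (0.26) and between Notch1 and Dll1 (0.32), and largest between Notch1 and Notch2 (1.77). Profiles were not scaled, so genes that change little lie close together. Hey1 and Heyl differed between the media by only -0.40 and -0.020, and Heyl was among the dimmest genes. Outside the members, the 3 genes most like Notch1 were Dtx4 (0.25), a ubiquitin ligase of the Deltex family that acts on Notch, then Trerf1 and the membrane protein Stom (both 0.28). Those most like Dll1 were Tnfrsf18 (0.14), a receptor of the TNF receptor family, Trerf1 (0.15) and Stom (0.17). These distances are a description over 6 arrays that share lines and media.

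Another 46 genes of the pathway were listed by role, and 37 of them were measured. Among these 37 genes 3 rose, 3 fell and 31 missed the threshold, with a median difference of -0.062. The counts of 3 and 3 are to be read beside the 2.63% and 3.15% of all genes called in each direction. At an unadjusted p under 0.05, 5 were higher and 5 lower, beside 11% and 11.4% of all genes. The adjusted counts changed with single arrays left out: leaving out EpiX array 2 left 0 of the 37 called by limma, EpiX array 3 or BEGM array 2 left 1, and EpiX array 1 left 3. Calls over all genes fell in the same settings, from 869 to 101, 418, 192 and 170.

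**Figure D3:**
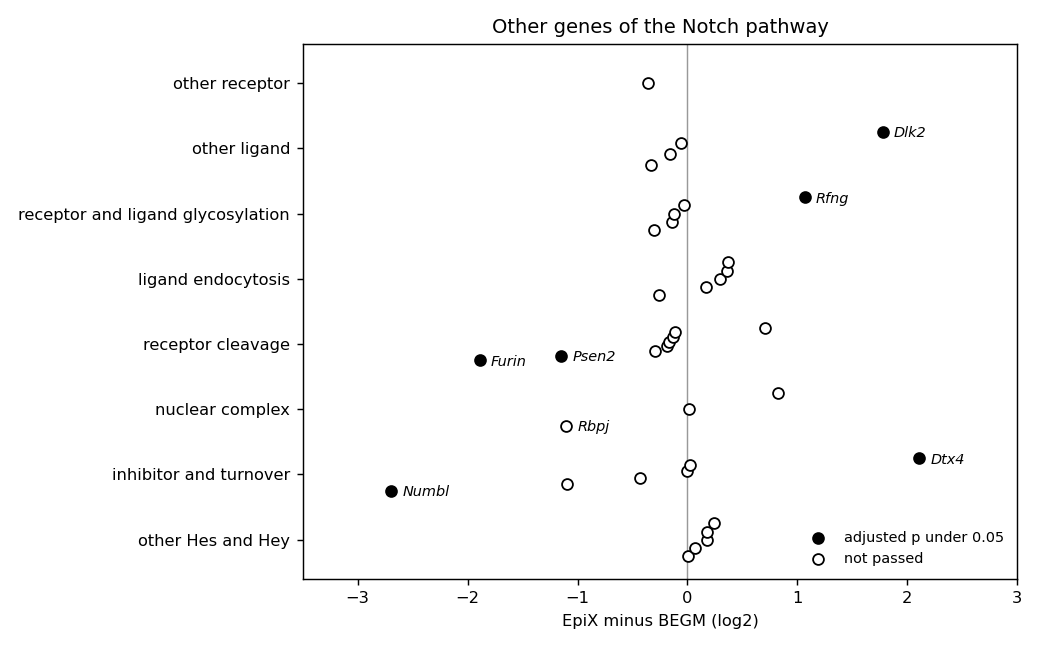
Difference between the media (EpiX minus BEGM, log2) for 37 other Notch pathway genes, grouped by role, 1 point per gene, spread vertically within a role for legibility. Filled points passed at an adjusted p under 0.05: Dlk2, Rfng and Dtx4 were higher in EpiX and Numbl, Furin and Psen2 lower; Rbpj, labelled but open, did not pass.

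The genes that rose were a Deltex ligase, a Delta-like protein and a receptor-modifying enzyme. Dtx4 was at 4.84, 5.40 and 5.18 in BEGM and 6.35, 7.61 and 7.79 in EpiX, a rise of 2.11 ± 0.38 (SE; adjusted p = 0.0273). Dlk2, a Delta-like protein without the usual receptor-binding domain and a marker of airway basal cells, was at 6.93, 7.53 and 6.95 in BEGM and 8.78, 9.04 and 8.93 in EpiX, a rise of 1.78 ± 0.20 (adjusted p = 0.00739). Rfng, a Fringe enzyme that adds sugar to the receptors, rose by 1.07 ± 0.16 (adjusted p = 0.0164), from 6.23 to 6.50 in BEGM to 7.23 to 7.58 in EpiX. None of these 3, named because they were called, overlapped between the media. For 13.5% of all genes all EpiX arrays lay above all BEGM arrays. The other Fringe genes, Lfng (-0.031 ± 0.19) and Mfng (-0.12 ± 0.16), did not pass.

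Lower levels in EpiX were found for a negative regulator and for genes of receptor cleavage. Numbl, which with its relative Numb is known to restrain Notch, was at 8.40, 9.23 and 10.81 in BEGM and 6.51, 6.87 and 6.99 in EpiX. It fell by 2.69 ± 0.56 (SE; adjusted p = 0.042), with BEGM array 3 the highest, while Numb differed by -0.43 ± 0.17 (adjusted p = 0.198). Furin, the convertase that makes the first cut in the maturing receptor and in many other proteins, was at 12.46, 13.51 and 13.35 in BEGM and 11.48, 11.22 and 10.98 in EpiX and fell by 1.89 ± 0.30 (adjusted p = 0.0181). Psen2, a catalytic subunit of gamma-secretase, the enzyme that frees the intracellular fragment, fell by 1.15 ± 0.25 (adjusted p = 0.0482), a call that ended in 10 of 17 alternatives. Of the other gamma-secretase subunits measured (Ncstn, Aph1a, Aph1b and Psenen) none passed, with differences of -0.30 to -0.11. Adam17, a protease that can make the ligand-induced cut, differed by 0.70 ± 0.19 (adjusted p = 0.0849) and Adam10, the main one, by -0.19 ± 0.18 (adjusted p = 0.600).

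These 6 calls were lost when some single arrays were left out, settings in which calls over all genes also fell, while the differences stayed close to those from all arrays. Without EpiX array 2, for example, Dlk2 differed by 1.72, Furin by -1.88 and Numbl by -2.73. Dlk2 missed the threshold without EpiX array 2 (adjusted p = 0.0583). Rfng missed it when BEGM array 2, EpiX array 2 or EpiX array 3 was left out (0.0560 to 0.0914), and Dtx4 when any of those or BEGM array 3 was (0.0636 to 0.129). Furin (0.0604 to 0.0932) and Numbl (0.0941 to 0.152) missed it when BEGM array 2 or any EpiX array was left out, and Psen2 when any array but BEGM array 1 was (0.0977 to 0.148). The direction of all 6 was kept in all 17 alternatives.

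Rbpj, the DNA-binding partner of every Notch receptor, was at 10.97, 11.93 and 13.63 in BEGM and 11.21, 10.95 and 11.06 in EpiX. The groups overlapped through BEGM array 1, BEGM array 3 was far above the rest, and the difference of -1.10 ± 0.60 (SE) did not pass (adjusted p = 0.344). It was -1.70 without BEGM array 1 (adjusted p = 0.0528) and -0.37 without BEGM array 3 (adjusted p = 0.567). Of 8 genes listed for the nuclear complex of Rbpj, 3 were measured. Maml3, 1 of them, leaned the other way (0.82 ± 0.23, SE, adjusted p = 0.0942). It was called higher with quantile normalization and with array weights, where 2.99% and 6.36% of all genes rose. In the remaining roles the largest differences were those of the receptor Notch4 (-0.36 ± 0.29, adjusted p = 0.541), the endocytic adaptor Epn1 (0.36 ± 0.18, adjusted p = 0.285) and the repressor Hey2 (0.24 ± 0.26, adjusted p = 0.650). Of the other Hes and Hey genes, 0 of 5 measured were called, and 0 were at an unadjusted p under 0.05.

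Lists of genes used as markers of other cell types also moved across the same arrays. Which cells in the cultures made these RNAs was not tested. The mean over the 9 fibroblast markers, all measured, was 6.50, 7.24 and 10.11 in BEGM and 5.29, 5.33 and 5.77 in EpiX (summed levels 58.5 to 91.0 and 47.6 to 51.9), with 0 of 9 called by limma (6 lower at an unadjusted p under 0.05), 3 called lower with the replicate block and 5 without BEGM array 1. For 7 of the 9 all EpiX arrays lay below all BEGM arrays, as they did for 14.5% of all genes. BEGM array 3 was thus the highest for this list and also for Notch2, Rbpj and Numbl. The intermediate filament Vim, used as a mesenchymal marker, was at 14.08, 15.83 and 17.18 in BEGM and 6.68, 7.96 and 11.68 in EpiX. Of the 7 smooth muscle markers, all measured, 3 fell, where 3.15% of all genes fell: the contractile genes Cnn1 (-7.00 ± 0.74, SE; adjusted p = 0.00649), Acta2 (-2.91 ± 0.36) and Lmod1 (-0.93 ± 0.19). The other 4 did not pass: Actg2 (-0.58 ± 0.14, adjusted p = 0.0622), Mylk (-0.054 ± 0.24), Myh11 and Des. Both Myh11 (4.13 to 4.66 over all arrays) and Des (4.09 to 4.87) were near 4.50, the limit of the dimmest 25% of genes. The smooth muscle list mean was 7.08, 7.78 and 7.61 in BEGM and 5.68, 5.87 and 5.84 in EpiX (summed levels 49.6 to 54.5 and 39.8 to 41.1). The 7 measured endothelial markers had 0 calls by limma (2 lower at an unadjusted p under 0.05) and 1 call, lower, without BEGM array 1. Over all genes 4.39% were called lower with the replicate block and 7.32% without BEGM array 1. At an unadjusted p under 0.05, 11.4% of all genes were lower. Over 6 measured of 9 squamous and hillock markers, the mean was 13.12, 11.87 and 11.20 in BEGM and 13.84, 13.39 and 13.19 in EpiX (summed levels 67.2 to 78.7 and 79.1 to 83.0), with 1 of 6 called higher, 3 with the replicate block and 4 without BEGM array 1. Over all genes 2.63%, 3.94% and 6.57% were called higher in these settings. Hes1, Notch3 and Nrarp were, like the squamous and hillock list, highest among BEGM arrays on array 1. This order was not particular to that list: the basal mean was 12.71, 12.38 and 12.24 in BEGM and 13.73, 13.61 and 13.67 in EpiX. Among EpiX arrays Hes1 and Nrarp were lowest on array 1, while Notch3 was highest there, as was the squamous and hillock list. The hillock keratin Krt13 was at 15.17, 11.88 and 11.28 in BEGM and 14.77 to 16.43 in EpiX. The part of basal, fibroblast, smooth muscle, squamous or hillock cells in the Notch values was not tested. No marker was at 0, since the lowest value in the table is 2.62.

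**Figure D4:**
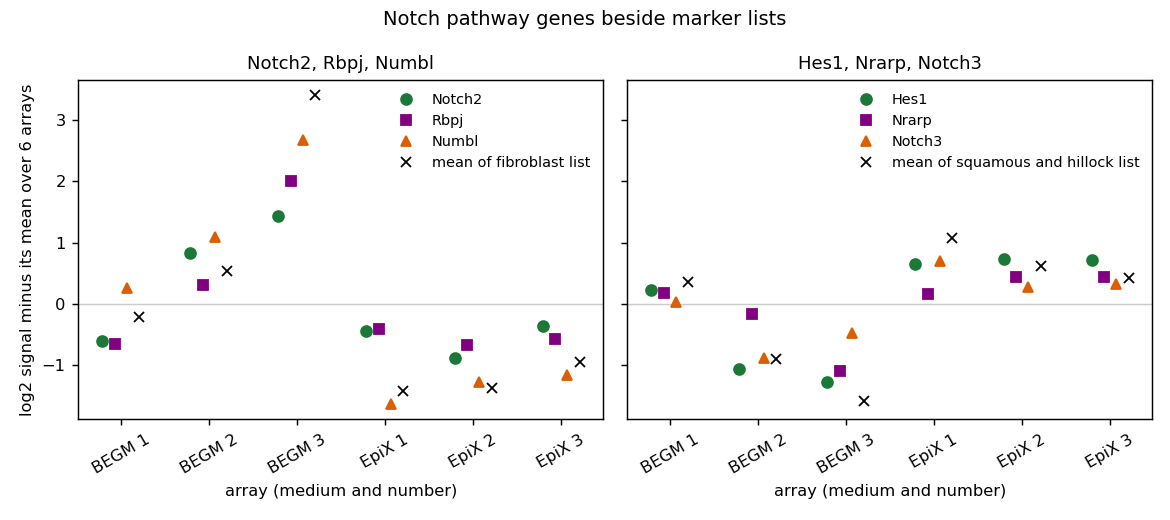
Log2 signal minus its mean over the 6 arrays for Notch2, Rbpj and Numbl beside the mean of the fibroblast markers (left), and for Hes1, Nrarp and Notch3 beside the mean of the squamous and hillock markers (right), chosen after their values were seen. Each symbol is 1 array; on the left all 4 series are highest on BEGM array 3, and on the right all 4 are higher on BEGM array 1 than on BEGM arrays 2 and 3.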

How the data were processed

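RNA of 6 cultures was measured on Affymetrix arrays, per the labels, and the Transcriptome Analysis Console is named in the submitters' processing notes, whose role and version are not stated there. The authors deposited 1 value per probe set and array (24834 probe sets, 2.62 to 18.66), read here as log2. The unit was read from the values, so scale, base, normalization and centring stay unknown. Array medians over named genes were 6.90 to 7.13. Precision is limited by the number of arrays.

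The platform annotation gave 15049 probe sets 1 symbol, 0 several and 9785 none. The brightest probe set was kept for 10 genes with several, leaving 15037 genes. Limma 3.58.1 (lmFit, eBayes; R 4.3.3, statmod 1.5.0) was fitted to all genes with the medium as its term, Benjamini-Hochberg adjustment over all genes, 2-sided, no filter, and tested on simulated data. Plots were drawn with matplotlib 3.10.9, and promoters came from RefSeq (GRCr8).

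The members and lists were chosen with earlier results of these data known. All members are named. Of the other pathway genes, those called are named, or else the largest difference of a role, and further ones were named after their values were seen. The 3 nearest profiles are given for called members, predicted loci passed over.

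The labels number samples 1 to 3 in each medium, and same-numbered arrays were taken as 1 divided line. The titles place the same arrays side by side but number the second pair 3 and give the third pair no number and another form of name, so the pairing is not stated outright, and values by pair and with the block rest on it. After each gene was centred within its medium, arrays numbered alike correlated at 0.32, -0.014 and 0.32, and arrays numbered differently at -0.37 to 0.16. The alternatives were the number as a fixed or random block, quantile normalization, median centring, array weights, a trended and robust variance, the mean of probe sets, the dimmest 25% of genes left out, and arrays left out singly or by number.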

Additional observations from a re-analysis of the deposited data

How the results depend on the processing

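With all genes, 869 were called, 1987 with array weights and 0 to 2089 with arrays left out, 0 being the count by limma when the pair numbered 2 was left out (1582 genes at an unadjusted p under 0.05) and 2089 that without BEGM array 1. Members called higher numbered 4 with array weights (Notch1, Notch3, Dll1 and Hes1) and 0 to 4 with arrays left out. Members called lower numbered 0 to 1 with arrays left out, Notch2 being called when BEGM array 1, or the pair numbered 1, was left out, and 0 in the other settings. Other pathway genes called numbered 9 with array weights and 0 to 8 with arrays left out, where 6 were called in the main setting. With the replicate block, 1252 genes were called in all, members called higher numbered 3, with Notch3 added, members called lower 0 and other pathway genes 6. The block changed no other call of a member or of the 6 called pathway genes. The difference of Heyl crossed 0, to 0.11 with median centring and 0.028 with array weights, and ranged from -0.12 to 0.074 with arrays left out. Median centring moved the median difference of all genes to 0.13. Apart from Heyl, every member kept its direction in all 17 alternatives. Fewer arrays also leave fewer degrees of freedom, and the cause of the changes with array weights was not tested. Without detection calls, no gene can be called absent, Heyl included.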

Other observations

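Notch signalling is known to govern the choice between secretory and ciliated fates, and both marker lists were read on the same arrays. Of 8 secretory markers 7 were measured, and 3 rose in EpiX: the immunoglobulin receptor Pigr by 2.34 ± 0.28 (SE; limma adjusted p = 0.00828), the cytochrome Cyp2f4 by 1.74 ± 0.30 (adjusted p = 0.024) and Lypd2 by 1.20 ± 0.24 (adjusted p = 0.0361, and 0.0531 with the replicate block). Over all genes 2.63% rose, and 3.94% with the replicate block. The secretoglobin Scgb3a1 was at 5.26, 10.27 and 8.01 in BEGM and 11.63, 13.33 and 15.75 in EpiX. It differed by 5.72 ± 1.43 (SE), which missed the threshold (adjusted p = 0.0675) and passed with the replicate block (adjusted p = 0.0201). The club cell protein Scgb1a1 varied from 8.49 to 13.49 over the 6 arrays, with overlapping groups and a difference of -0.85 ± 1.43 (SE; adjusted p = 0.786). Scgb3a2 (-0.38 ± 0.18, adjusted p = 0.268) and Bpifa1 (2.1 ± 0.96, adjusted p = 0.259) did not pass either. Of 8 ciliated markers 6 were measured and 0 were called by limma (1 higher and 2 lower at an unadjusted p under 0.05), the largest difference being that of Tppp3 (1.16 ± 0.31, adjusted p = 0.0833). Over all genes 11% were higher and 11.4% lower at an unadjusted p under 0.05.

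Without BEGM array 1, the pathway genes Dtx3, a Deltex relative (-1.45 ± 0.19, SE; adjusted p = 0.00461), and Adam17 (0.82 ± 0.20, adjusted p = 0.0429) also passed. With all arrays Dtx3 differed by -1.10 ± 0.31 (adjusted p = 0.0899).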
